A study of Mus musculus with 6 samples.

Results

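The genes described here are 8 myelin, Schwann cell and peripheral nerve genes, taken by symbol from a list of names (Mbp, Pmp22, Prx, Egr2, S100b, Cdh19, Gap43 and Ncam1). All 8 were found among the 55487 genes of the table. RNA was sequenced from 6 whole grafts of B16F10, a pigmented mouse melanoma line, grown under the tongue mucosa of C57BL/6J mice labelled WT. In the 3 inhibition grafts the nociceptive nerves supplying the cervical lymph nodes had been silenced. In the design text 1 arm had received the vector AAV2/retro-Trpv1-mCherry in those nodes, 6 weeks before the tumour cells; it carries a red fluorescent protein alone. The other arm received AAV2/retro-Trpv1-hM4D(Gi)-mCherry, which adds an inhibitory designer receptor that acts when its ligand is present. Deschloroclozapine, that ligand, was given 2 times per day over 12 days to mice of both arms according to the design text, while the labels call the 3 control grafts vehicle-treated; which of these the controls were is not settled by the sources. Expression of the receptor was driven from a Trpv1 vector in nerves of the node, not of the tongue, and non-tumour tissue had been trimmed from the grafts. The sources used here do not give the age or sex of the mice or say whether each graft came from a separate mouse, so p-values measure the spread between these samples.

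Schwann cells are the glia of peripheral nerve. Some wrap single axons in myelin, a stack of membrane held together by a few proteins made in large amounts, and others ensheathe bundles of thin axons, nociceptors among them, without myelin. Schwann cells and melanocytes both derive from the neural crest and share regulators such as Sox10 and the neuregulin receptor Erbb3. Several Schwann cell markers, S100b, Cdh19 and Ncam1 among them, are also known from melanocytes or melanoma. In a B16F10 graft their RNA can therefore come from tumour cells as well as from nerve.

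Library totals were 14477277 to 20972494 counts. Levels are given as CPM, in which a gene's count is divided by the TMM-scaled total of its library, and differences as the log2 fold change of inhibition over control from edgeR's quasi-likelihood test with Benjamini-Hochberg adjustment over 15666 genes. Calls are genes whose adjusted p was under 0.05. In a bulk sample, fewer cells of a type and less RNA per cell cannot be told apart.

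No member of the group passed the test. The filter on low counts kept 7 of the 8, leaving out Gap43, and edgeR called 0 of the 7, against 0.0383% of all genes (6 of 15666; 0.0319% higher and 0.00638% lower). DESeq2 called 0 of the 7, against 3.67% of the genes it could adjust. Limma-voom also called 0, as it did over all 15666 genes. Its 0 for the members and for each list below therefore says nothing particular about them. At an unadjusted p under 0.05 there was 1 member in each of the 3 tools, Pmp22 on the higher side; over all genes edgeR gave 8.36% higher and 7% lower at that level. In all 8 members the CPM ranges of the 2 groups overlapped. Over the 15666 tested genes, which do not include Gap43, the inhibition libraries lay wholly above the controls in 10.2% and wholly below in 11%. Overlap was thus the usual case and does not set the members apart. Mbp, Pmp22, Prx and Egr2 had positive log2 fold changes (0.16 to 0.54), and S100b, Cdh19 and Ncam1 negative ones (-0.31 to -0.21). The 95% interval, before adjustment, held 0 in each of these except Pmp22.

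**Figure D1:**
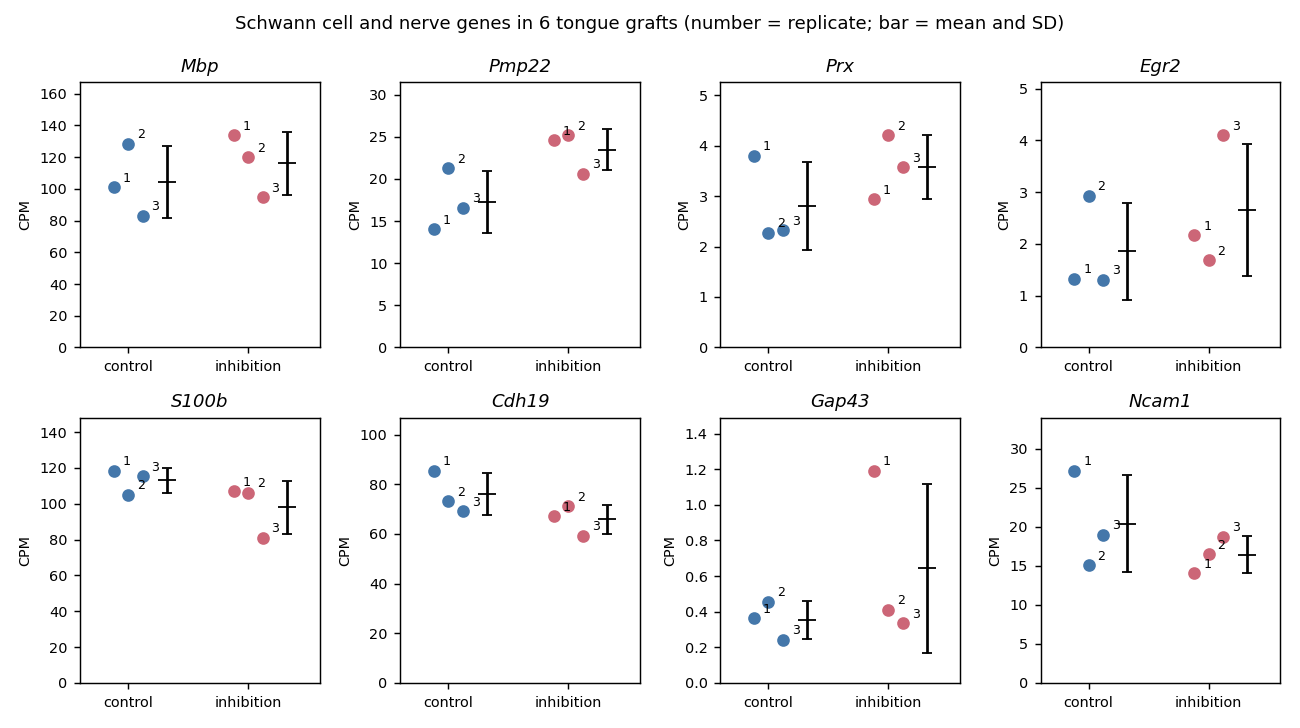
CPM (vertical axis, from 0) of each of the 8 genes in the 3 control and the 3 inhibition grafts, with points numbered by replicate and the mean and SD beside them. In every gene the groups overlap: Pmp22 comes closest to separating, with 20.6 to 25.2 CPM under inhibition against 14.0 to 21.3 CPM in controls.

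The promoters of 3 members are shown because Prx and Pmp22 are myelin genes with positive fold changes and S100b is the member with the highest level per length. RefSeq start sites on GRCm38.p6 were at hand for Prx (1), Pmp22 (4), Egr2 (5) and S100b (1). The windows of 300 bases from 250 before to 50 after each start were searched on both strands for ACAAAG, a core bound by SOX factors such as Sox10, and GCGTGGG, a core bound by EGR factors such as Egr2; the motifs do not overlap each other, while some windows of 1 gene do. The SOX core was in 0 of these 11 windows, against 18.7% of 32851 mouse promoters, and the EGR core in 1 of 11, against 5.04%. The match was in Prx and started 161 bases upstream of the start, reading CCCACGC, the reverse complement. The lines give the 250 bases before the start of Prx (chr7:27499074-27499323), of the first Pmp22 start (chr11:63128732-63128981) and of S100b (chr10:76253586-76253835), all on the plus strand, with the EGR core in capitals. A match is a description of letters and not evidence of binding.
Prx: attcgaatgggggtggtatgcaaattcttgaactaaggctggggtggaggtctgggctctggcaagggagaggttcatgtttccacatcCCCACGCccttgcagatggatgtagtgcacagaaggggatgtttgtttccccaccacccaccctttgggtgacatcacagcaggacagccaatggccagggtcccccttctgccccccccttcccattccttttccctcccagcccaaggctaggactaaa
Pmp22: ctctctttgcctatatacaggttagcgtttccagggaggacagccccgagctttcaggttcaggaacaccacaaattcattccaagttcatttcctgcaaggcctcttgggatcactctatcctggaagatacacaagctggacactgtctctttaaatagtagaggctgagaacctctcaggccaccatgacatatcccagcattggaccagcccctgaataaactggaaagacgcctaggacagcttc
S100b: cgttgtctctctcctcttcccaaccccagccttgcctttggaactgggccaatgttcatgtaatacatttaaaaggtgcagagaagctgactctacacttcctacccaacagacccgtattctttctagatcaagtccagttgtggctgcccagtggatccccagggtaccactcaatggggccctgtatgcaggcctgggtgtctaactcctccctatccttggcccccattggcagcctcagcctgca

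Mbp encodes myelin basic protein, which holds the inner faces of the myelin membrane together; a longer set of transcripts from the same gene is also made outside the nervous system, and gene counts do not separate the 2 sets. It stood at 101, 128 and 83.1 CPM in controls 1, 2 and 3 and at 134, 120 and 94.7 CPM in inhibition 1, 2 and 3. The highest value was in inhibition 1 and the lowest in control 3, with control 2 above inhibition 2 and 3. The log2 fold change was 0.16 ± 0.19 (SE; 95% interval -0.29 to 0.60, adjusted p = 0.715). Without control 3 it was 0.01, without inhibition 1 0.04, and without control 2 or inhibition 3 0.32 or 0.27. These values rested on 1675 to 2341 counts per library. Markers of the other myelinating glia, oligodendrocytes, were near the floor: Mog had 2 counts over the 6 libraries together (0, 0 and 0 in controls, 1, 1 and 0 under inhibition), and Olig2, Opalin and Ermn had 0. Of the 8 listed oligodendrocyte genes 1 passed the filter, and their summed level was 0.387 to 0.905 CPM in controls and 0.512 to 1.05 CPM under inhibition.

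Pmp22, a small membrane protein of compact myelin that fibroblasts and other cells also make, stood at 14.0, 21.3 and 16.6 CPM in controls and 24.6, 25.2 and 20.6 CPM under inhibition. Only control 2 reached into the range of the inhibition grafts, where it exceeded inhibition 3. The means were 17.3 ± 3.69 and 23.5 ± 2.47 CPM (SD, n = 3 per group). The log2 fold change of 0.44 ± 0.16 (SE; 95% interval 0.08 to 0.80) gave an unadjusted p of 0.0212 and an adjusted p of 0.251 in edgeR. Without the filter on low counts the edgeR adjusted p was 0.0450 (log2 fold change 0.43), in a fit that called 4.12% of 28841 genes. On the lower side that edgeR fit gave S100b, Cdh19 and Ncam1 unadjusted p of 0.0182, 0.0253 and 0.0272. None of these was called (adjusted p = 0.220, 0.272 and 0.283).

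Levels of other tissue of the graft were set beside Pmp22. All 10 fibroblast genes and all 18 tested skeletal muscle genes (of 19) had positive fold changes, with medians of 0.65 and 1.33. EdgeR called 0 of either list (unadjusted p under 0.05 in 9 and 11, all higher), limma-voom 0 (10 and 16) and DESeq2 5 fibroblast and 8 muscle genes, all higher. Their summed levels were 715 to 1064 and 986 to 2173 CPM in controls, and 1261 to 1634 and 2628 to 4472 CPM under inhibition. Once muscle content entered the edgeR fit as a covariate, the Pmp22 log2 fold change was -0.030 (adjusted p = 0.9996), in a fit where muscle level and group move together. The part of fibroblasts, or of pigment cells, in the Pmp22 value was not tested.

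Prx encodes periaxin, a scaffold in the outer myelin membrane of Schwann cells. It was low, with 35 to 82 counts per library. Levels were 3.80, 2.28 and 2.32 CPM in controls and 2.94, 4.20 and 3.57 CPM under inhibition, so control 1 lay above inhibition 1 and 3. The log2 fold change was 0.36 ± 0.29 (SE; 95% interval -0.30 to 1.01, adjusted p = 0.573). It was 0.63 without control 1, 0.23 without control 3, and 0.22 without either control 2 or inhibition 2. An antisense gene, Gm15541, overlaps a Prx exon and had 1 count over the 6 libraries.

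Egr2, also called Krox20, is the transcription factor that switches Schwann cells to making myelin, and lymphocytes and macrophages also make it on stimulation. It stood at 1.33, 2.93 and 1.31 CPM in controls and 2.17, 1.69 and 4.10 CPM under inhibition. Inhibition 3 and control 2 were the high libraries, and the other 4 lay between 1.31 and 2.17 CPM. The log2 fold change of 0.54 ± 0.44 (SE; 95% interval -0.46 to 1.53, adjusted p = 0.575) rested mainly on inhibition 3: without it the value was 0.06. It was 1.001 without control 2, 0.35 without control 1 and 0.33 without control 3. By the mean of their log2 levels, a list of other EGR and immediate early genes was highest in the same 2 libraries. The level of that list, less the mean of the controls, was 0.29 in control 2 and 0.24 in inhibition 3 and -0.41 to 0.07 in the other 4 (log2 scale). Its summed level was 199, 205 and 166 CPM in controls and 145, 135 and 202 CPM under inhibition, so by the sum control 1 was close to those 2 libraries. In this list 2 of 6 tested members were positive and Egr4 was at 0. The part of these genes in the Egr2 value was not tested. Of 10 lymphocyte markers 2 passed the filter (1 positive), with summed levels of 5.52 to 8.78 CPM in controls and 6.73 to 7.01 CPM under inhibition. All 10 myeloid markers passed, at 189 to 225 and 177 to 223 CPM summed, and were split, with 6 positive and 4 negative (median 0.26, lower quartile -1.36; median 0.08 without control 1 and 0.54 without control 2). The mean of their log2 levels, less that of the controls, was -1.19, -0.85 and -0.11 in inhibition 1, 2 and 3. EdgeR called 0 (unadjusted p under 0.05 in 2 higher and 3 lower), limma-voom 0 (3 and 4) and DESeq2 called 1 higher, the receptor gene Csf1r, and 1 lower, the endotoxin co-receptor gene Cd14 (edgeR log2 fold changes 0.62 and -1.57, adjusted p = 0.186 and 0.0969).

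S100b, a calcium-binding protein long used to stain Schwann cells and melanoma, was the member with the highest level per length. It stood at 118, 105 and 116 CPM in controls and 107, 106 and 81.0 CPM under inhibition. Inhibition 3 was the low library, while inhibition 1 and 2 lay just above control 2. The means were 113 ± 6.99 and 98.1 ± 14.8 CPM (SD, n = 3 per group), and the log2 fold change was -0.21 ± 0.11 (SE; 95% interval -0.46 to 0.04, adjusted p = 0.403). Without inhibition 3 it was -0.10. Fat cells also make S100b; of their 8 listed markers 2 passed the filter, Adipoq had 0 counts in each control and 4, 0 and 3 under inhibition, and Lep, Cidec and Retn had 0 in all. The summed level of the fat cell markers was 39.5 to 58.2 CPM in controls and 51.7 to 66.9 CPM under inhibition.

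Cdh19, a cadherin of the Schwann cell and melanocyte lineages, stood at 85.4, 73.2 and 69.2 CPM in controls and 67.1, 71.1 and 59.3 CPM under inhibition. Inhibition 3 was again lowest, control 1 was highest, and inhibition 2 lay above control 3. The log2 fold change was -0.21 ± 0.10 (SE; 95% interval -0.44 to 0.02, adjusted p = 0.367). Without control 1 it was -0.12. S100b and Cdh19 followed each other across the grafts, with a root mean square difference of 0.10 between their centred log2 levels over the 6 libraries, the smallest of any pair of tested members.

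Ncam1, the neural cell adhesion molecule, is made by non-myelinating Schwann cells, neurons, regenerating muscle, taste cells and some tumours. It stood at 27.2, 15.03 and 19.0 CPM in controls and 14.0, 16.5 and 18.7 CPM under inhibition. Control 1 stood apart at the top, and control 2 was lower than 2 of the inhibition grafts. The log2 fold change was -0.31 ± 0.21 (SE; 95% interval -0.80 to 0.18, adjusted p = 0.506), without control 1 it was -0.06, and without control 2 -0.50. Muscle precursor genes ran the other way, 5 of 6 tested being positive (median 0.76; 9 listed; summed level 15.2 to 27.9 CPM in controls and 32.7 to 36.6 CPM under inhibition). Taste cell genes were at 7.45 to 8.93 and 7.67 to 10.4 CPM summed over 8 genes.

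Gap43, a growth-cone protein of axons that Schwann cells also make after injury, had 6, 7 and 5 counts in controls and 17, 8 and 7 under inhibition, or 0.362, 0.455 and 0.242 CPM and 1.19, 0.410 and 0.334 CPM. The inhibition 1 value stood apart, and the other 5 libraries lay between 0.242 and 0.455 CPM. The gene fell below the count filter and has no test; without the filter its log2 fold change was 0.81 (edgeR adjusted p = 0.663).

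**Figure D2:**
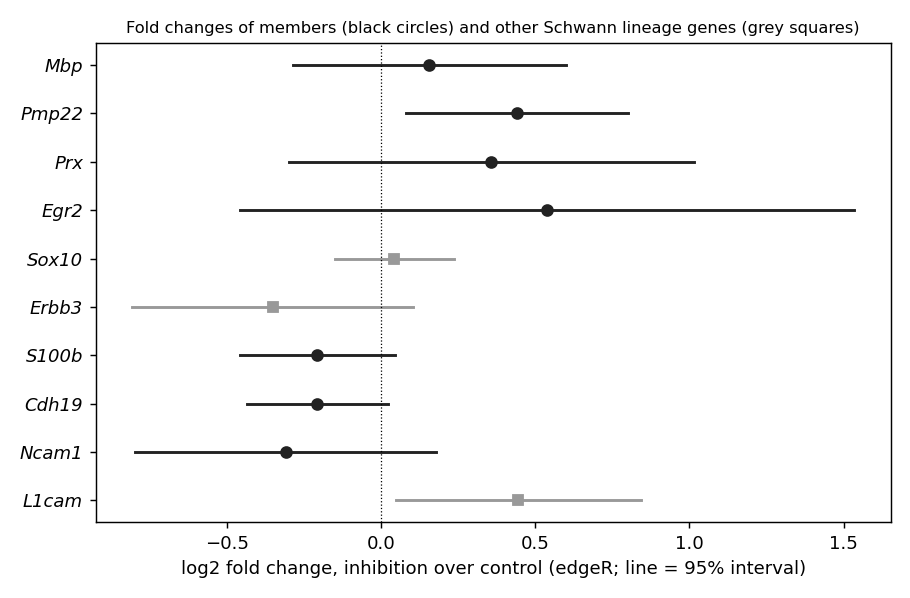
Log2 fold change of inhibition over control (horizontal axis; line, 95% interval of edgeR) for the 7 tested members, drawn as black circles, and for Sox10, Erbb3 and L1cam, drawn as grey squares. Among the members only the Pmp22 interval (0.08 to 0.80) lies off 0, before adjustment.

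Levels of different genes can be compared only per length, here as CPM per kilobase of merged exons, averaged over the 6 libraries. Merged exons take in all annotated transcripts, so a gene whose long transcripts are little used is set too low. They span 8469 bases for Mbp and 4280 for Cdh19. Before division by length Mbp was the higher, with control and inhibition means of 104 and 116 CPM against 76.0 and 65.8 CPM for Cdh19. The order was S100b (71.1 ± 8.91, SD over 6 libraries), Cdh19 (16.6 ± 2.005), Mbp (13.0 ± 2.38), Pmp22 (8.66 ± 1.87), Ncam1 (2.12 ± 0.545), Egr2 (0.663 ± 0.321), Prx (0.571 ± 0.143) and Gap43 (0.328 ± 0.228). S100b lay above Cdh19 in all 6 libraries without overlap, as did Pmp22 above Ncam1 and Ncam1 above Egr2. Cdh19 and Mbp overlapped (Cdh19 above in 5 of 6 libraries), as did Egr2 and Prx (3 of 6) and Prx and Gap43 (5 of 6), so these neighbours did not differ beyond their spread. Mbp lay above Pmp22 in all 6 libraries, although the 2 ranges overlapped. On the same scale Sox10 stood at 198 and the pigment gene Pmel at 1948 CPM per kilobase.

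**Figure D3:**
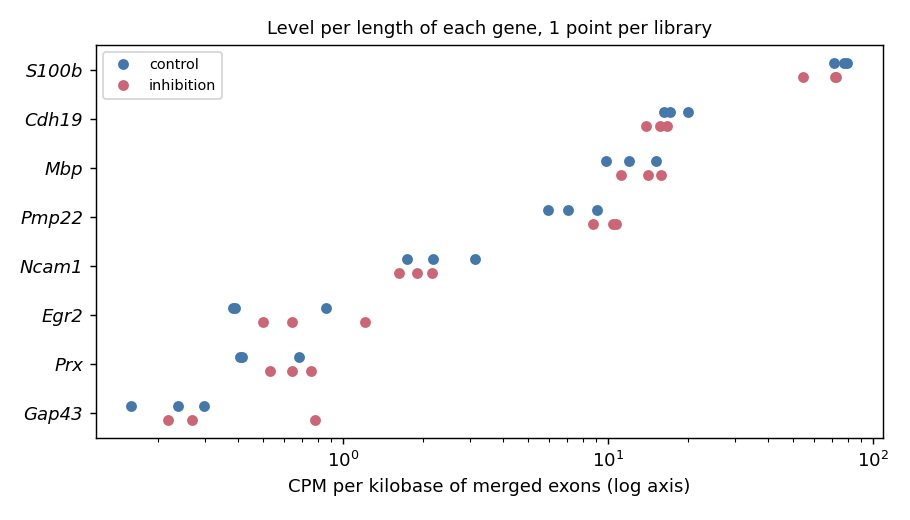
CPM per kilobase of merged exons (horizontal log axis) of the 8 genes, 1 point per library, controls in blue and inhibition in red. S100b stands alone at 54.6 to 79.8 CPM per kilobase, and Egr2, Prx and Gap43 lie at the low end, between 0.159 and 1.21.

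Defining markers of Schwann cells were set beside the label of the group, and they were uneven. Pmp2, a myelin protein, had 0 counts in all 6 libraries, and Mag, an adhesion molecule of the inner myelin membrane, had 1 to 10. Pmp2 and Mag were picked after their values were seen, and 11 of the 18 listed myelin sheath genes did pass the filter. Sox10 stood at 577, 597 and 614 CPM in controls and 651, 543 and 649 CPM under inhibition (log2 fold change 0.04 ± 0.09, SE; adjusted p = 0.832). All 15 pigment cell genes passed the filter, Sox10 among them, with summed levels of 17232 to 25627 CPM in controls and 24434 to 30008 CPM under inhibition; 14 of 15 had positive fold changes (median 0.21; 0.03 without control 1, 0.12 without inhibition 1 and -0.16 with the muscle covariate), and edgeR called 0 of them (0 at an unadjusted p under 0.05), DESeq2 0 and limma-voom 0 (1 higher in each). The share of S100b, Cdh19, Ncam1 or Mbp reads that came from nerve was not tested. Relative to Sox10 in the same library, the mean log2 difference between inhibition and control was -0.25 for S100b and -0.24 for Cdh19, but inhibition 2 (0.05 for each) lay within the control values of both, which ran from -0.10 to 0.12 and from -0.17 to 0.22.

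A list of 18 myelin sheath genes, which holds Mbp, Pmp22 and Prx, placed these beside their partners. Of the 18, 11 passed the filter, 8 with a positive and 3 with a negative log2 fold change, and the median of the tested genes was 0.30, beside 0.0049 over all genes. EdgeR called 0 of the 11 (unadjusted p under 0.05 in 2 higher and 1 lower), limma-voom 0 (2 and 1) and DESeq2 0 (1 and 1). The smallest p were those of Pmp22, Cadm4 and Drp2. Cadm4, a cell adhesion molecule of the axon contact, had a log2 fold change of -0.44 (adjusted p = 0.310). Without the filter on low counts edgeR called it lower (adjusted p = 0.00044). Drp2, a partner of periaxin in the outer myelin membrane, was low, at 0.436 to 1.37 CPM in controls and 1.33 to 1.999 CPM under inhibition, with control 2 inside the range of the inhibition grafts (log2 fold change 1.04 ± 0.46, SE; adjusted p = 0.323). The myelin median was 0.13 without control 1 and 0.11 with the muscle covariate.

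Regulators and lineage markers of Schwann cells, a list of 21 with Egr2, S100b and Cdh19 among them, were spread on both sides. Of 17 tested, 9 were positive and 8 negative (median 0.04; -0.08 without inhibition 1). EdgeR called 0 (unadjusted p under 0.05 in 2 higher and 0 lower), limma-voom called 0 and DESeq2 1, Cryab. Cryab, a small heat shock protein of glia and of muscle, stood at 176, 183 and 203 CPM in controls and 264, 236 and 261 CPM under inhibition, a log2 fold change of 0.44 ± 0.08 (SE; edgeR adjusted p = 0.122; called without the filter, adjusted p = 0.00023). Sox2, a brake on myelination, had a log2 fold change of 1.32 from levels of 0.242 to 0.716 and 0.619 to 1.54 CPM (adjusted p = 0.275), and the glial sodium channel gene Scn7a one of 0.55 (0.346). Erbb3, which receives the axonal signal neuregulin, stood at 143, 84.2 and 106 CPM in controls and 78.8, 86.1 and 96.5 CPM under inhibition (-0.35 ± 0.19, SE; adjusted p = 0.423). Its log2 fold change was -0.14 without control 1 and -0.53 without control 2. Without the filter on low counts Erbb3 was called lower by edgeR (adjusted p = 0.0173).

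Genes of non-myelinating and injury-induced repair Schwann cells, where Gap43 and Ncam1 belong, gave 5 positive and 6 negative values among 11 tested of 15 (median -0.01; 0.26 without control 2). EdgeR, DESeq2 and limma-voom each called 0, and each had an unadjusted p under 0.05 in 1 higher and 0 lower. In edgeR that gene was L1cam, a neural adhesion molecule made by melanoma as well, at 7.30, 11.3 and 9.34 CPM in controls and 13.1, 13.1 and 11.8 CPM under inhibition (0.45 ± 0.18, SE; adjusted p = 0.280). Its groups did not overlap, as in 10.2% of all tested genes with inhibition above. The neurotrophic ligand Artn, with a log2 fold change of -0.62 (adjusted p = 0.401), did not overlap either, with inhibition below as in 11% of all genes, and Gfap, a filament of non-myelinating Schwann cells, had one of -0.26 (0.489).

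Signals and contacts between axon and Schwann cell (17 genes, all tested) had 11 positive and 6 negative values and a median of 0.07. None was called by edgeR (0, with 0 at an unadjusted p under 0.05), DESeq2 (0, with 2 higher and 2 lower) or limma-voom (0, with 0); without the count filter edgeR called 1 higher and 2 lower. The smallest p were those of Lama2, a laminin chain of nerve and muscle basal lamina (log2 fold change 0.55, adjusted p = 0.337), the laminin chain gene Lamc1 (0.16, 0.355) and the adhesion gene Cadm1 (-0.19, 0.355). The ligand Nrg1 was at 0.362 to 0.976 CPM in controls and 0.762 to 1.28 CPM under inhibition.

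Neurons that supply the tongue keep their cell bodies, and most of their messages, in ganglia outside it. Only 5 of 21 listed genes passed the filter. Nefl had 0 counts in all libraries, Nefm at most 1 and Nefh at most 2. Trpv1 had at most 1 count and Calca, which encodes the nociceptor peptide CGRP, 1, 0 and 1 counts in controls and 0 in each inhibition graft. The 21 genes summed to 156 to 285 CPM in controls and 117 to 144 CPM under inhibition, a sum in which abundant genes weigh most. By the mean log2 level of the 5 tested genes, less that of the controls, the groups overlapped. Those values were 0.16, -0.06 and -0.09 in controls and -0.10, 0.05 and 0.01 under inhibition. Of the 5 tested, 2 were positive and 3 negative (median -0.19; -0.0089 without control 1 and -0.32 without control 3). EdgeR called 0 (unadjusted p under 0.05 in 1 higher and 1 lower), DESeq2 called 0 (0 higher and 1 lower) and limma-voom 0 (1 and 1); without the count filter edgeR called 1 lower. Sncg, a synuclein of peripheral neurons, had a log2 fold change of 1.10 (adjusted p = 0.224), the filament gene Prph one of -0.83 (0.275) and Tubb3, a tubulin that tumours make as well, one of -0.67 (0.342).

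Perineurium and nerve fibroblast genes, which have no member among the 8, had 9 positive and 2 negative values in 11 tested of 12 (median 0.76; 0.46 without inhibition 2 and -0.25 with the muscle covariate). Their summed level, most of it from Slc2a1, went the other way, at 246 to 263 CPM in controls and 190 to 230 CPM under inhibition. EdgeR called 0 (unadjusted p under 0.05 in 4 higher and 1 lower); limma-voom called 0 (3 and 1), and DESeq2 called 1 lower, Slc2a1, and without the count filter edgeR called 3 higher and 1 lower. Slc2a1, the glucose transporter of the perineurium and of hypoxic tumour, stood at 200, 185 and 189 CPM in controls and 111, 151 and 159 CPM under inhibition; its log2 fold change was -0.44 (adjusted p = 0.196). The tight junction gene Cldn1, made in perineurium and in epithelium, gave a log2 fold change of 0.93 (adjusted p = 0.250), and Osr2, a transcription factor gene, 0.89 (0.262). Tongue epithelium genes were at 1306 to 2839 CPM summed in controls and 1657 to 5036 CPM under inhibition, with 11 of 12 positive (median 0.76); their part in these values was not tested.

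**Figure D4:**
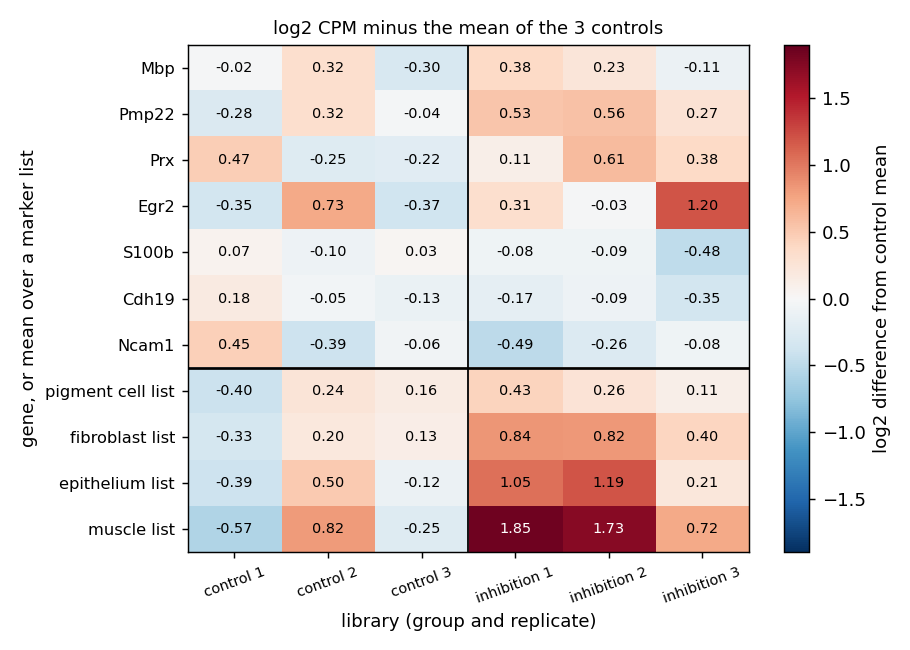
Log2 CPM less the mean of the 3 controls (colour and printed value) for the 7 tested members and, under the line, for the mean of 4 marker lists, in each library (columns). Pmp22 and all 4 lists, pigment cells among them, are each highest in inhibition 1 and 2. Control 2 lies above inhibition 3 for Pmp22, pigment cells, epithelium and muscle but below it for fibroblasts. S100b and Cdh19 are lowest in inhibition 3.

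The libraries differed among themselves in a way the groups do not account for. Control 2 held the highest muscle level of the controls (0.82 on the log2 scale, less the control mean), above inhibition 3 (0.72), and inhibition 1 and 2 stood at 1.85 and 1.73. Pmp22 gave 0.32 in control 2, 0.27 in inhibition 3 and 0.53 and 0.56 in inhibition 1 and 2. The pigment cell list gave 0.24, 0.11, 0.43 and 0.26 in the same libraries. Prx did not follow this order, with 0.47 in control 1, where the muscle list was at -0.57, and 0.11 in inhibition 1. Ncam1 ran the other way at its extremes, with 0.45 in control 1 and -0.49 in inhibition 1.

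The genes with the most similar profiles were sought among named genes of at least 1 CPM, by the root mean square difference of centred log2 levels over the 6 libraries. Among so many genes and only 6 points, small differences arise readily. Ncam1 was nearest to Erbb3 (0.05), then to Epop (0.06) and D5Ertd605e (0.07). Pmp22 was nearest to Akap6 (0.05), L1cam (0.05) and Fli1 (0.07), and Mbp to Ttc30a1, Gbgt1 and Iqsec2 (0.06 to 0.07). Nearest to S100b were Gskip, Mterf4 and H3f3a (0.04 to 0.05) and to Cdh19 Cyld, Spryd3 and Zfand2b (0.03 to 0.04). Prx lay nearest to Celsr3, Optc and Aamdc (0.07 to 0.11) and Egr2 to Adap1, Cxcl16 and Hspa12a (0.13 to 0.23).

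On GRCm38 all 8 genes are annotated as protein-coding. Pmp22 (ENSMUSG00000018217) lies on chromosome 11 from 63128982 to 63159547, Prx (ENSMUSG00000053198) on chromosome 7 from 27499324 to 27520214, and Egr2 (ENSMUSG00000037868) and S100b (ENSMUSG00000033208) on chromosome 10 from 67535475 to 67542188 and from 76253853 to 76261159. Cdh19 (ENSMUSG00000047216) lies on chromosome 1 from 110888326 to 110977584, Gap43 (ENSMUSG00000047261) on chromosome 16 from 42248442 to 42340651, Ncam1 (ENSMUSG00000039542) on chromosome 9 from 49502136 to 49798925 and Mbp (ENSMUSG00000041607) on chromosome 18. An antisense gene, Gm11149, overlaps an Ncam1 exon and had 1 to 6 counts per library.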

How the data were processed

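The values deposited by the authors are whole-number read counts for each Ensembl gene and library, unnormalized. Build mm10 and HISAT2 2.0 are named per the submitters' processing notes; the counter, annotation release and strand setting are not given in the sources used here. Columns naming nociceptive denervation were matched by number to the titles naming nerve inhibition. Of 55487 gene IDs, 55141 had a symbol.

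The filterByExpr rule (by group, minimum count 10, minimum total 15) chose the genes tested with edgeR 4.0.16 (TMM, robust quasi-likelihood, R 4.3.3). The SE is the absolute log2 fold change over the square root of F, and intervals use the moderated degrees of freedom. Log2 levels use a prior count of 2. Exon lengths and coordinates are from GENCODE M21. Alternatives were upper-quartile and RLE factors, other filters, limma-voom (limma 3.58.1), DESeq2 1.42.0, a replicate block, each library left out, a threshold of 0.1, a muscle covariate and tongue genes left out. On counts simulated for this comparison (15447 genes), 70% of 100 genes changed 2-fold and 88% of 100 changed 4-fold were recovered. Smaller changes, such as those of the tested members (log2 fold changes of -0.31 to 0.54), were not simulated, so these shares do not apply to them. In the deposited counts some genes with changes above 4-fold were not called.

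The members and 17 other lists were chosen with earlier results of these data known, and no list was tested as a set. Named genes are the members, the 3 smallest p of each nerve list, content markers and the 3 nearest profiles per member; content lists are given by counts and summed levels. Mag, Pmp2, Nrg1, Nefl, Nefm, Nefh, Trpv1, Calca, Tac1, Csf1r and Cd14 were named after their values were seen. A few genes of the lists are not reported here and were left out of the list counts.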

Additional observations from a re-analysis of the deposited data

How the results depend on the processing

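Most of the alternative fits called few genes of any kind, so a member that stays uncalled in them shows little. Of 105 refits of the 7 tested members, 101 kept direction and side of the threshold. The exceptions were Pmp22 without the count filter (0.43, called, so that 1 member was called) and 3 sign changes with the muscle covariate: Mbp -0.36, Pmp22 -0.030 and Ncam1 0.35. Under that covariate the sign also turned for Erbb3 (0.22), Pmel (-0.16), Dct (-0.038), Ckm (-0.38) and Krt5 (-0.13); edgeR called 0 genes (unadjusted p under 0.05 in 198 higher and 304 lower), and the muscle level moves with the group. Values close to 0 changed sign with 1 library left out, with ranges of -0.00996 to 0.12 for Sox10 and -0.00030 to 0.17 for Dct.

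Over all genes the 6 edgeR calls became 1187 without a filter, 541 in DESeq2, 0 in limma-voom (unadjusted p under 0.05 in 1366 higher and 1064 lower), 14 with the replicate block and 33 at an adjusted p under 0.1. They ranged from 0 to 217 with 1 library left out (controls 1, 2 and 3: 11, 24 and 0, and inhibition 1, 2 and 3: 0, 0 and 217). The count of members called stayed at 0, which says little about them where so few genes of any kind were called. Where the count over all genes was 0, an unadjusted p under 0.05 was met in edgeR by 1094 higher and 1094 lower (control 3), 770 and 655 (inhibition 1) and 772 and 933 (inhibition 2). The cause was not tested. With the replicate block 0 members were called. Same-numbered grafts deviated together in pairs 2 and 3 (correlations 0.37 and 0.12) but not in pair 1 (-0.21). Differently numbered grafts gave -0.44 to 0.32. The labels do not say whether a shared number marks a pairing, and so few correlations cannot settle it. Depth limits Gap43, at 5 to 17 counts, most.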

Other observations

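Among nociceptor messages outside the rule for naming genes, Tac1, which encodes substance P, had 0 counts in each control and 3, 4 and 4 counts in the inhibition grafts. These counts are near the floor. Over the tested genes, which do not include Tac1, the inhibition libraries lay wholly above the controls in 10.2%. Tac1 was chosen after its values were seen and fell below the count filter, so it was not in the main test. The fit without that filter included Tac1, but its value there is not given here.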
